A study of Mus musculus with 4 samples.

Results

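Dendritic cells take up antigen, carry it to T cells and present it, and they form conventional subsets, called cDC1 and cDC2, and plasmacytoid cells (pDC), which make type I interferon. This report follows 9 genes used to recognise these cells, Zbtb46, Mycl1, Batf3, Clec9a, Xcr1, Itgae, Ly75, Cd209a and Siglech, in libraries of sorted mouse macrophages. They were taken by symbol (Mycl1 is the files' older name for Mycl), and all 9 of the 17008 genes with a read in any library had reads in all 4 libraries. The RNA came from macrophages of C57BL/6J mice labelled 6 to 8 weeks old, from bone marrow or spleen. The normal groups are taken as day 0. The T cell acute lymphoblastic leukaemia (T-ALL) groups are day 21 after transplant of GFP+ leukaemia cells into unirradiated mice, and the design asks how their macrophages differ from those of homeostasis. Each of the 4 groups (normal bone marrow, T-ALL bone marrow, normal spleen and T-ALL spleen) is 1 library. With no replicates, none of the differences could be set against a replicate spread, and no test was run. The sources do not state the sort's markers or how many mice a library holds.

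Zbtb46 is a repressor found in conventional dendritic cells and their committed precursors, and also in some endothelial and erythroid cells. Mycl1, a relative of Myc, and Batf3, a basic leucine zipper factor, act in the cDC1 lineage, where Batf3 works with Irf8. Clec9a (a receptor for exposed actin of dead cells), Xcr1 (the receptor for the chemokine Xcl1), Itgae (the integrin CD103, which pairs with Itgb7) and Ly75 (the endocytic receptor DEC-205) mark cDC1 to different degrees. Itgae is also made by T cells, and Ly75 by B cells and other cells. Cd209a, a C-type lectin, is found on cDC2 and on some monocytes. Siglech, which signals through Tyrobp, is found on pDC, their precursors and some macrophages.

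Promoters are shown for Clec9a, Xcr1 and Cd209a, the genes whose RefSeq window ends exactly at the gene start of the GENCODE M21 annotation. These windows are the 250 bases before the start, from RefSeq on build GRCm38.p6, with CpG dinucleotides in capitals. Clec9a lies at chr6:129408612-129408861 (+ strand), Xcr1 at chr9:123862030-123862279 (- strand) and Cd209a at chr8:3748985-3749234 (- strand).
Clec9a: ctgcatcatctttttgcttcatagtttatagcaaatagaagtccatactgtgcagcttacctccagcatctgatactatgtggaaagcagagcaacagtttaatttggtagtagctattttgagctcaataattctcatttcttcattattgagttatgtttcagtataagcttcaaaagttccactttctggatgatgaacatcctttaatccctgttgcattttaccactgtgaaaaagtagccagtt
Xcr1: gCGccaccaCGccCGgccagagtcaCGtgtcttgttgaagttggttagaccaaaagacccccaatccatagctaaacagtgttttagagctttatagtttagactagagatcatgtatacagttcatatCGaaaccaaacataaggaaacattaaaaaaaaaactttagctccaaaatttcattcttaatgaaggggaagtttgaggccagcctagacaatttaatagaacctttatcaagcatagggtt
Cd209a: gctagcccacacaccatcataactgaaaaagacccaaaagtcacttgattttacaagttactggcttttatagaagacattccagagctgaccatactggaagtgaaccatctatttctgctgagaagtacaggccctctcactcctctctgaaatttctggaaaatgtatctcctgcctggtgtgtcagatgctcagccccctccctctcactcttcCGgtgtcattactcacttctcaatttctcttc
The Clec9a window holds 0 CpG, that of Cd209a 1 and that of Xcr1 5, against a median of 6 over 32851 RefSeq windows of this length. Their GC contents were 35.6%, 44.8% and 38.8%, against a median of 52.4%. Of the 9 genes 8 matched the promoter table. The Batf3, Ly75 and Mycl1 windows were CpG-rich, with 27, 17 and 14 CpG. Those of Batf3 and Mycl1 lie inside the GENCODE genes, 567 and 279 bases from their starts. Motifs were searched on both strands. The PU.1 core AGGAAGT and the ETS-IRF composite motif were found in 0 of the 8 windows, and they occur in 7.69% and 2.30% of all windows. The AP-1 motif TGANTCA, present in 6.75% of all windows, was found in the Zbtb46 window alone, which lies inside the GENCODE gene, 35038 bases from its start. These matches are descriptions of letters, and nothing about a factor follows from them.

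The libraries held 8.98M to 9.81M uniquely mapped reads, and 1 read was worth 0.101 to 0.112 CPM. CPM is a gene's reads scaled to a common library total, and pairs of values in parentheses are exact 95% intervals that cover counting error only. Macrophage markers were present in all 4 libraries. Csf1r, the M-CSF receptor, was at 133 CPM in normal bone marrow, 947 in T-ALL bone marrow, 2415 in normal spleen and 1421 in T-ALL spleen. All 16 core macrophage genes were detected in each library and summed to between 5178 and 13216 CPM. Genes of other cells were present too. Summed T cell genes ran from 231 CPM in normal bone marrow to 4210 CPM in T-ALL spleen. Neutrophil genes made up 4.90% and 3.06% of the reads in normal and T-ALL bone marrow, and summed B cell genes ran from 443 CPM in normal bone marrow to 4156 CPM in normal spleen. In bulk RNA, fewer cells of a type and less RNA per cell cannot be told apart.

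In spleen, 8 of the 9 genes were lower in the T-ALL library and 0 were higher. The size rule for calling a gene asks for a 2-fold difference or more, taken on log2(CPM + 1), and a level of 10 CPM in whichever library is higher. All 9 genes reached 10 CPM in this comparison, where 11% of the 9774 genes measured were called lower and 10.3% higher. In T-ALL spleen only Batf3 and Ly75 reached 10 CPM. The other genes were measured through normal spleen alone, so they could be called lower but not higher. The median log2 fold of the 9 genes was -2.20, against -0.08 for all genes measured. The 8 genes called had 97 to 543 reads in normal spleen and 14 to 119 in T-ALL spleen.

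Among the transcription factors, Mycl1 was at 5.78 CPM in normal bone marrow, 5.15 in T-ALL bone marrow, 60.7 in normal spleen and 5.09 in T-ALL spleen. Normal spleen stood alone, and the intervals of the other 3 libraries overlapped. Mycl1 was 11.9-fold lower in T-ALL than in normal spleen (8.85 to 16.4), the 3rd lowest log2 fold of the 9774 genes. Zbtb46 was at 2.13, 3.0, 45.4 and 8.12 CPM in the same order of libraries. Its bone marrow libraries overlapped, T-ALL spleen lay above them and normal spleen above all. It was 5.59-fold lower in T-ALL spleen (4.36 to 7.25). Batf3 was at 2.13, 6.01, 31.9 and 12.9 CPM, with no overlap between neighbouring libraries. Its fall in spleen was smaller, at 2.47-fold (1.99 to 3.09).

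**Figure D1:**
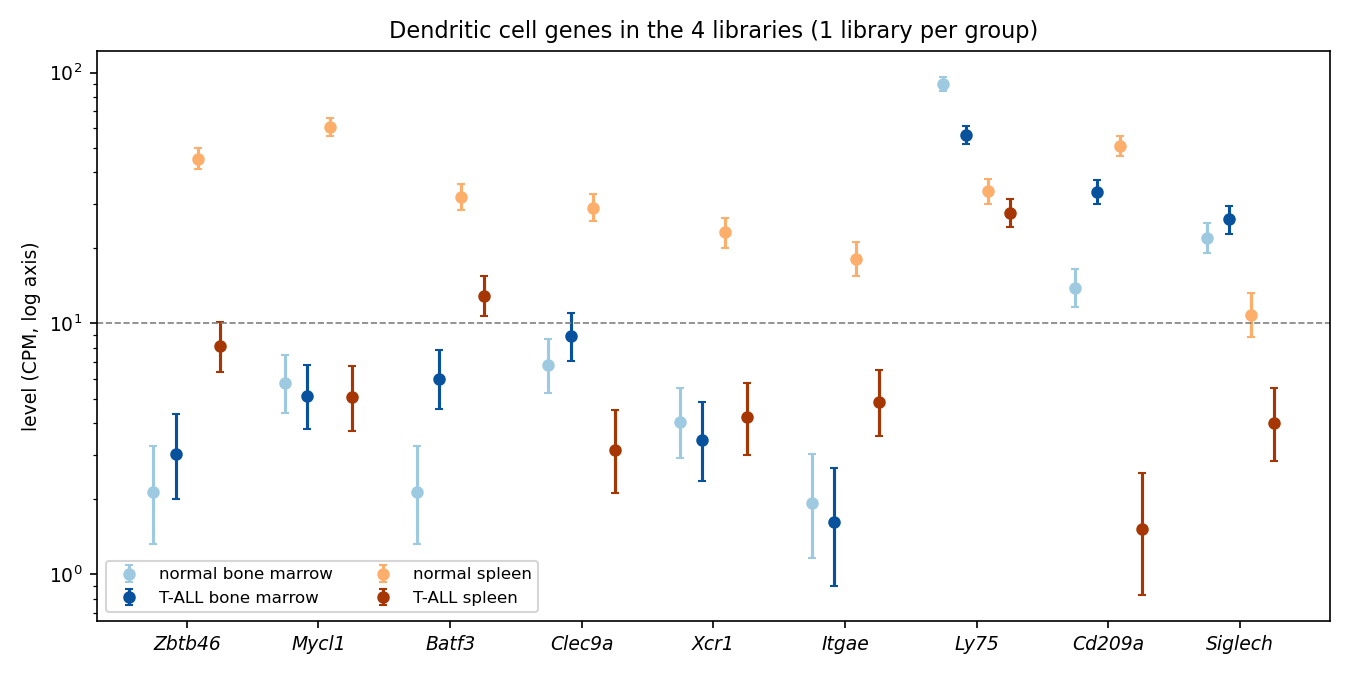
Levels of the 9 dendritic cell genes in CPM (log axis) in the 4 libraries, with exact Poisson 95% intervals for counting error as bars and 10 CPM as the dashed line. Normal spleen is the highest library for 7 genes, while Ly75 is highest in normal bone marrow (90.2 CPM) and Siglech in T-ALL bone marrow (26.0 CPM).

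The receptors of cDC1 did not fall alike. Clec9a was at 6.80 CPM in normal bone marrow, 8.91 in T-ALL bone marrow, 29.0 in normal spleen and 3.14 in T-ALL spleen, where it was lowest. It was 9.23-fold lower in T-ALL than in normal spleen (6.27 to 14.1). Xcr1 was at 4.06, 3.43, 23.0 and 4.22 CPM. Apart from normal spleen its libraries overlapped, and it was 5.46-fold lower in T-ALL spleen (3.86 to 7.90). Itgae was at 1.93, 1.61, 18.1 and 4.87 CPM, and 3.72-fold lower in T-ALL spleen (2.66 to 5.30). The Itgae interval lay below that of Clec9a, while Xcr1 overlapped both.

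Ly75 followed another order. It was at 90.2 CPM in normal bone marrow, 56.5 in T-ALL bone marrow, 33.7 in normal spleen and 27.6 in T-ALL spleen. The levels of the spleen libraries overlapped, and Ly75, 1.22-fold lower in T-ALL spleen (1.03 to 1.45), was the gene of the 9 not called there. Of 13 B cell genes 7 were lower in T-ALL spleen. Their sum was lowest in normal bone marrow, where Ly75 was highest, and neutrophil genes had their highest sum there, at 48800 CPM. The part of either cell type in the Ly75 level was not tested.

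Cd209a changed most. It was at 13.9 CPM in normal bone marrow, 33.5 in T-ALL bone marrow, 51.0 in normal spleen and 1.52 in T-ALL spleen, with no overlap between any neighbours. From 456 reads in normal spleen it went to 14 in T-ALL spleen, 33.7-fold lower (19.9 to 62.1) and the lowest log2 fold, -4.37, of all 9774 genes measured in spleen. The Cd209 genes are close copies of each other, so the unique counts of Cd209a are uncertain. The monocyte list, which Cd209a can share cells with, summed to 2826 CPM in normal and 1797 CPM in T-ALL spleen. Of its 12 measured genes 4 were lower and 2 higher (median log2 fold -0.78). The chemokine receptor Ccr2 was 6.60-fold lower (5.31 to 8.27), while the matrix genes Vcan and Fn1 were higher, at folds of 30.0 (11.4 to 112) and 3.37 (2.77 to 4.12), the first from 4 and 124 reads. The part of monocytes in the Cd209a fall was not tested.

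Siglech was at 21.9 CPM in normal bone marrow, 26.0 in T-ALL bone marrow, 10.9 in normal spleen and 4.01 in T-ALL spleen. The bone marrow libraries overlapped and both lay above the spleen libraries. In spleen it was 2.71-fold lower with T-ALL (1.84 to 4.07). Tyrobp, its signalling adaptor, was 2.41-fold lower (2.28 to 2.56).

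**Figure D2:**
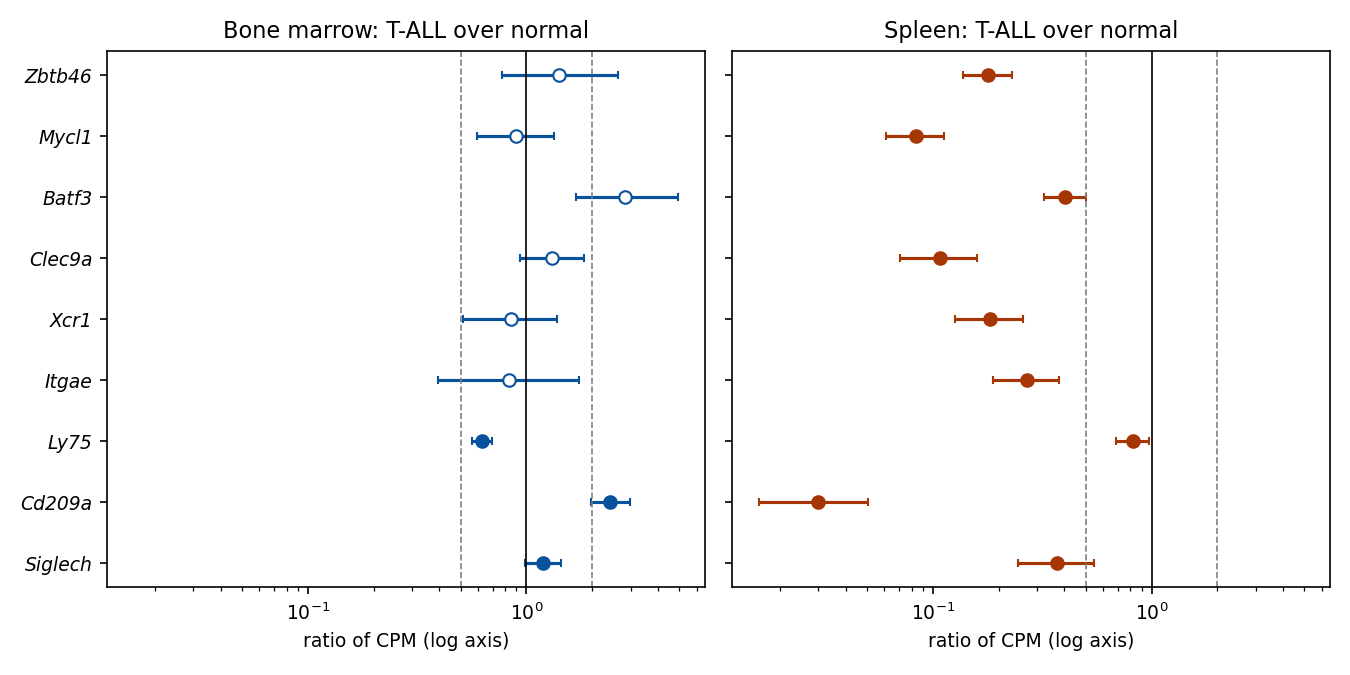
Ratio of CPM in T-ALL over normal (log axis) for each gene in bone marrow (left) and spleen (right), with exact 95% counting intervals as bars, dashed lines at 0.5 and 2, and open circles for genes under 10 CPM in both libraries. In spleen all 9 points lie below 1, down to 0.0297 for Cd209a, and in bone marrow they lie from 0.626 for Ly75 to 2.82 for Batf3.

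Lists of other dendritic cell genes were also lower in T-ALL spleen. These lists, like the 9 genes, were chosen with earlier results of these data known, so they are not independent support. Their genes are not all restricted to dendritic cells. Ciita and H2-DMb2, for example, are on the list shared by conventional dendritic cells and on that of MHC class II, which B cells and macrophages share. B cell genes were lower in 7 of 13, and the part of B cells in the falls of these lists was not tested. Of 14 measured cDC1 genes beside the 9, 10 were lower and 0 higher, with a median log2 fold of -1.37. Tlr11, Snx22 and Ifi205 led the falls, at folds of 12.6 (7.86 to 21.2), 7.02 (4.55 to 11.3) and 7.01 (4.51 to 11.4). Irf8, the factor that works with Batf3, was 2.12-fold lower (2.01 to 2.24). Cd8a, also on this list, is made by T cells too and went from 92.6 to 38.5 CPM. Of 12 cDC2 genes 5 were lower and 0 higher (median -0.78), with the lectin Clec4a4 9.42-fold lower (6.63 to 13.8) and Cd7 7.39-fold lower (6.22 to 8.85). Irf4, a transcription factor of cDC2, was at 123 and 121 CPM.

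Of 16 genes shared by conventional dendritic cells, 10 were lower and 0 higher (median -1.29). Flt3, the growth factor receptor these cells depend on, and Itgax, the integrin CD11c, were at 161 and 569 CPM in normal spleen and at 22.4 and 152 CPM in T-ALL spleen. Itgax, also made by macrophages, was 3.74-fold lower (3.52 to 3.97), less than Clec9a, Mycl1, Zbtb46 or Cd209a by intervals that do not overlap. Batf3 and Ly75 fell less than Itgax by intervals that do not overlap either, and those of Xcr1, Itgae and Siglech overlapped that of Itgax. Of 10 measured pDC genes beside Siglech, 7 were lower and 1 was higher (median -1.23). Runx2 was 3.20-fold lower (2.61 to 3.95), whereas Ccr9, a chemokine receptor also found on thymocytes, was 3.73-fold higher (3.07 to 4.56). In the same comparison 14 of 16 T cell genes were higher, and their part in the Ccr9 rise was not tested. Of 11 genes of mature dendritic cells, 6 were lower and 0 higher (median -1.29). Traf1, Cd80 and Relb led these at folds of 3.54 (3.21 to 3.92), 3.11 (2.39 to 4.09) and 2.88 (2.65 to 3.13).

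Of 11 growth factor and receptor genes, 8 were lower and 0 higher (median -1.39). Beside Flt3 and Kit, they included Csf2rb2, a receptor chain of the GM-CSF family, at 3.74-fold (3.12 to 4.5). Flt3l, the ligand of Flt3, went from 25.2 to 9.64 CPM. Of 17 transcription factors other than the 9 genes, 8 were lower and 0 higher (median -0.99), led by Relb, Bcl11a at 2.82-fold (2.56 to 3.11) and Bcl6 at 2.64-fold (2.36 to 2.97). Among partners and ligands of the 9 genes, 3 of 13 were lower and 0 higher (median -0.66). These were Tyrobp, Irf8 and Itgb7, the partner of Itgae, at 2.65-fold (2.47 to 2.83). Xcl1, the ligand of Xcr1, was at 5.26 and 2.06 CPM and stayed under the minimum. Several lists share genes, such as Flt3, Kit, Irf8 and Relb, so their counts are not independent.

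Genes of macrophages and of some other cells were lower as well. T cell genes went the other way in T-ALL spleen, with 14 of 16 higher and 0 lower (median log2 fold 1.48). In T-ALL spleen 6 of 16 core macrophage genes were lower and 0 higher, with a median log2 fold of -0.74. The list for macrophages of red pulp and erythroblastic islands had 8 lower and 1 higher of 16 (median -0.97), with the scavenger receptor Cd163 6.86-fold lower (6.19 to 7.62). Neutrophil genes were lower in 6 of the 8 measured (median -1.70) and NK cell genes in 5 of 6 (median -1.54), with 0 higher in either list. Both medians lie below those of the other dendritic cell lists. Set against the core macrophage median of -0.74, 5 of the 9 dendritic cell genes stayed at least 2-fold lower. The share of all genes called against that baseline was not computed. B cell genes had a median of -1.01 and MHC class II genes, which dendritic cells, B cells and macrophages share, one of -1.54 with 10 of 10 lower. All 15 cell cycle genes were higher (median 2.04). The part of these cells in the falls was not tested.

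**Figure D3:**
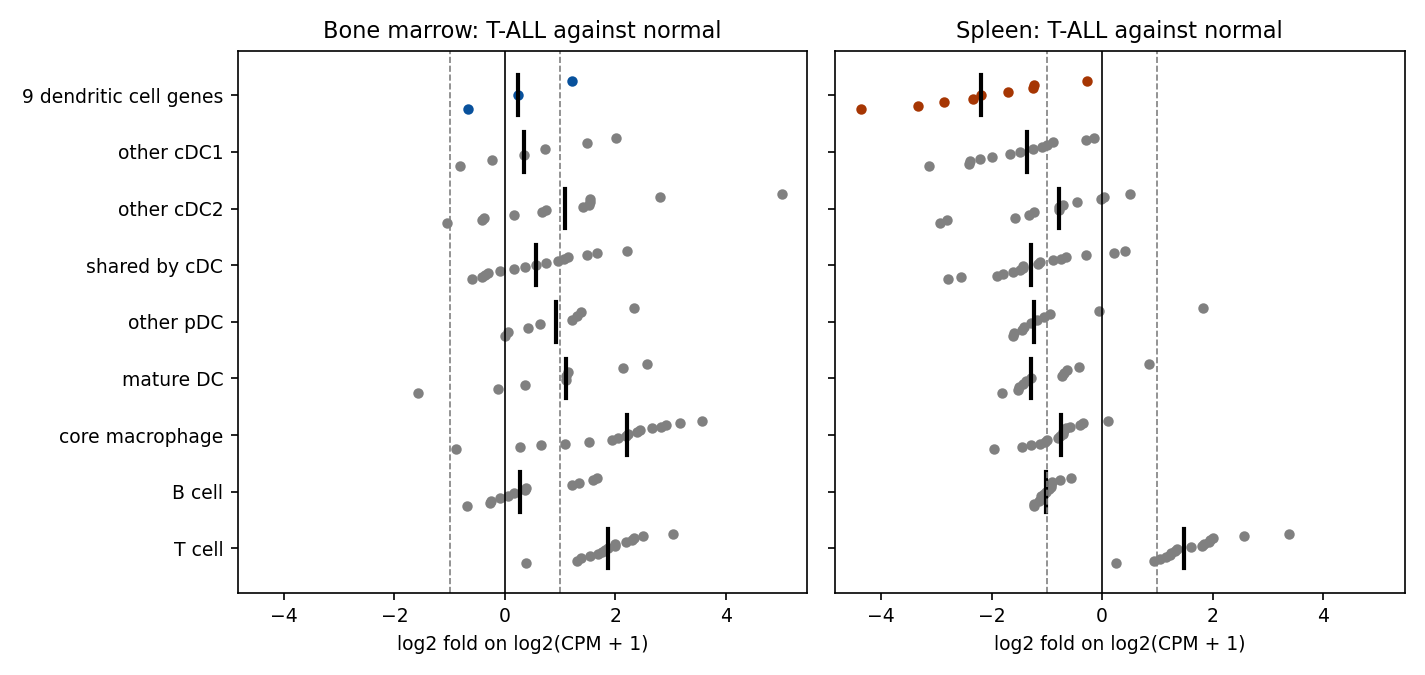
Log2 folds of T-ALL against normal, on log2(CPM + 1), in bone marrow (left) and spleen (right) for genes at 10 CPM or more, with 1 point per gene, black bars for list medians and dashed lines at 2-fold. In spleen the 9 dendritic cell genes have the lowest median of the lists drawn, -2.20, and in bone marrow the core macrophage list has the highest, 2.21.

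In bone marrow the same genes were near the limit of the size rule. Only Cd209a, Ly75 and Siglech reached 10 CPM, and of these 1 was higher and 0 were lower with T-ALL, where 8.01% of the 9716 genes measured were called higher and 1.03% lower. Cd209a was 2.41-fold higher (1.96 to 2.97). Ly75 was 1.60-fold lower (1.43 to 1.78) and not called, and for Siglech the interval of the fold, 1.19 (0.982 to 1.43), included 1. Batf3 had 21 and 56 reads, 2.82-fold higher (1.68 to 4.90), below the minimum level. For Clec9a, Xcr1, Zbtb46, Mycl1 and Itgae the interval of the fold included 1, so a difference was not detectable at this depth. With 15 to 83 reads each in T-ALL bone marrow, the widest of these, that of Itgae, ran from 0.395 to 1.73.

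Over the same bone marrow libraries, 13 of 16 core macrophage genes were higher (median log2 fold 2.21) and so were 10 of 13 monocyte genes (2.34). Cd209a, at a log2 fold of 1.21, was the dendritic cell gene called in the same direction, and set against the macrophage median its log2 fold was -1.0. Of 7 other cDC1 genes 2 were higher and 0 lower (median 0.35), with Cadm1 4.42-fold (3.44 to 5.75) and Naaa 2.86-fold (2.52 to 3.24) higher. Of 15 genes shared by conventional dendritic cells 5 were higher and 0 lower (median 0.56), and Flt3 was at 77.7 and 62.5 CPM. Of the cDC2 genes 6 of 12 were higher and 1 was lower (median 1.08). The cDC2 calls included Dtx1, a Notch target, at 41.1-fold (29.4 to 59.2) and Cd4 at 3.04-fold (2.55 to 3.62), both also made by T cells. Of 15 T cell genes 14 were higher in the same comparison (median 1.87), and their part in these calls was not tested. Of the pDC genes 4 of 8 were higher and 0 lower (median 0.92), led by the sensor Tlr7 at 5.26-fold. Tlr7 is made by macrophages too.

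Between the normal organs, 7 of the 9 genes were higher in spleen and 1 was lower, against 16.1% and 14% of 10072 genes. Their median log2 fold was 2.25, against -0.04 for all genes measured. This comparison shares the normal spleen library with that of T-ALL against normal spleen, and a high level there enters both. In normal bone marrow only Cd209a, Ly75 and Siglech reached 10 CPM. The other genes were measured through normal spleen alone, so they could be called higher but not lower. Zbtb46 was 21.3-fold higher (13.8 to 34.8), Batf3 15.0-fold (9.60 to 24.6), Mycl1 10.5-fold (7.98 to 14.1) and Itgae 9.40-fold (5.83 to 16.0). Smaller were Xcr1 at 5.68-fold (4.03 to 8.18), Clec9a at 4.26-fold (3.25 to 5.66) and Cd209a at 3.67-fold (3.03 to 4.48). Ly75 was 2.68-fold lower (2.35 to 3.06). Siglech, 2.02-fold lower (1.58 to 2.59), missed the rule at a log2 fold of -0.95.

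The core macrophage list had a median log2 fold of 2.44 between the normal organs, with 13 of 16 genes higher and 3 lower. Set against it, 1 of the 9 dendritic cell genes was higher and 2 were lower, and Clec9a, Cd209a and Xcr1 changed sign, to log2 folds of -0.50, -0.64 and -0.19. This baseline takes 2.44 off the log2 fold of every gene, and the median of all genes measured was -0.04 before it. The share of all genes called against it was not computed, so these counts have no background. Of the 10 other pDC genes measured, 6 were higher in normal spleen and 0 lower (median 2.21). Runx2, like Siglech, had less in normal spleen, at 42.6 CPM against 78.8 in normal bone marrow, and was not called. The pDC genes called higher were Spib, Ly6d, Pacsin1, Irf7, Tlr7 and Tlr9. Several of these, Tlr7, Ly6d and Tlr9 among them, are made by B cells or macrophages too. The others were not shown to be restricted to pDC, and the part of B cells and macrophages was not tested. The pDC factor Tcf4 had 59.2 CPM in normal bone marrow against 72.2 in normal spleen and was not called.

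Between the T-ALL organs, 3 of the 4 genes that reached 10 CPM were lower in spleen and 0 higher, against 11% lower and 5.44% higher of 9852 genes. Cd209a was 22.1-fold lower (13 to 40.9), Siglech 6.48-fold (4.57 to 9.43) and Ly75 2.04-fold (1.76 to 2.38). Cd209a and Siglech reached 10 CPM in T-ALL bone marrow alone, so they could not be called higher in T-ALL spleen. Batf3 reached 10 CPM in T-ALL spleen alone and could not be called lower there. Batf3, 2.14-fold higher in T-ALL spleen (1.55 to 3.0), missed the rule at a log2 fold of 0.99, and total-count scaling brings the count of higher genes to 1. Below the minimum, Zbtb46 (2.70-fold, 1.73 to 4.33) and Itgae (3.03-fold, 1.66 to 5.85) were higher and Clec9a 2.84-fold lower (1.84 to 4.49). Among the cDC1 receptors the direction was therefore mixed.

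Levels of different genes can be compared only per length, for which the deposited RPKM was used. In normal spleen Batf3 was highest of the 9 at 44.6 RPKM, followed by Cd209a at 34.2, Zbtb46 at 17.5 and Mycl1 at 17.2, with Siglech last at 4.51. In T-ALL spleen Batf3 led again at 18.2 RPKM, and Ly75 was next at 5.38. There Cd209a was 7th at 1.03 RPKM. In normal bone marrow the order opened with Ly75 at 17.5, Cd209a at 9.41 and Siglech at 9.19, and in T-ALL bone marrow with Cd209a at 22.4. For scale, Flt3 was at 43.8 RPKM and Csf1r at 621 RPKM in normal spleen.

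**Figure D4:**
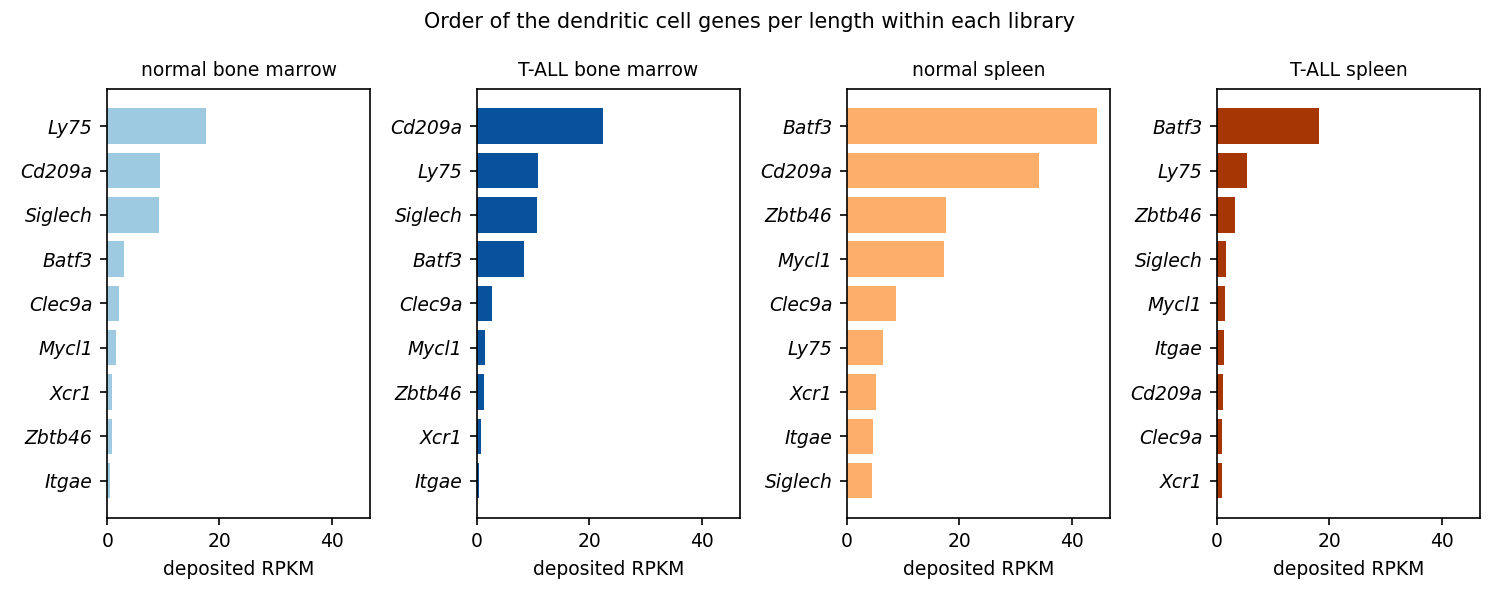
Deposited RPKM of the 9 genes in each library (1 library per panel, bars from 0), sorted within the library. Batf3 leads both spleen libraries (44.6 and 18.2 RPKM), Ly75 leads normal bone marrow (17.5 RPKM) and Cd209a leads T-ALL bone marrow (22.4 RPKM).

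The reads covered most of each gene where it was high. Per the deposited coverage, the share of the listed length under a read, Clec9a was covered over 91.4% in normal spleen and 30.1% in T-ALL spleen, and Cd209a over 99.0% and 27.8%. In normal spleen coverage of the 9 genes ran from 76.2% (Xcr1) to 99.0%. In GENCODE M21, Clec9a overlaps Clec1b on the same strand, and Itgae overlaps Haspin (Gsg2 in the files) on the other strand. How the authors' counting treated such overlaps is not given. Clec1b did not share the fall of Clec9a, at 21.3 CPM in normal and 23.2 CPM in T-ALL spleen, and Gsg2 was at 14.1 and 19.5 CPM.

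The 9 genes did not share a single profile over the 4 libraries. Likeness was measured as the distance between log2(CPM + 1) values, each gene centred on its mean. The closest members were Xcr1 and Itgae (0.78), Zbtb46 and Itgae (0.84), and Xcr1 and Mycl1 (0.88), all high in normal spleen and low elsewhere. Ly75 lay closest to Siglech (1.05), and the farthest were Zbtb46 and Siglech (4.30).

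Outside the 9 genes, 9868 were compared over these 4 libraries. Nearest to Xcr1 were Eps8l1 (0.18), Snx22 (0.18), which is on the list of other cDC1 genes, and Adam11 (0.29), and 13 genes lay within 0.5. Nearest to Clec9a were Gpr162 (0.44), Ifi205 (0.56), again of the cDC1 list, and Amica1 (0.60). Mycl1 had Tlr11 (0.64), also of that list, Notch4 (0.72) and Snx22 (0.75), and Zbtb46 had Ccnd1 (0.15), Prss30 (0.21) and Sspo (0.23). Nearest to Batf3 were Gpr18 (0.12), Cd55 (0.16) and Akr1b7 (0.18), and to Itgae Slco5a1 (0.02), Slc4a8 (0.08) and Lrrc16a (0.16). Cd209a had no gene within 0.5, and the nearest were Flt1 (0.89), Serpinb10 (1.23) and P2ry6 (1.39). Ly75 had 190 such genes, with Lrrc1 (0.07) nearest, and Siglech 66, with Dhrs7 (0.07) nearest. With 4 libraries such a distance is a description of these libraries, and the cDC1 list was chosen with earlier results of these data known.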

How the data were processed

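RNA of 4 sorted macrophage libraries was sequenced, 1 per group, grouped by the sample titles. Per the file headers, the authors deposited counts of uniquely mapped reads per gene, with length, coverage (the percent of the length under a read) and RPKM. The deposited counts sum to the header totals, genes without a line were set to 0, and the deposited RPKM was recomputed to within 9.2e-06%. The sources used here do not give the aligner, counting rule, strand setting or build. Reads of close copies and of overlapping genes are uncertain.

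CPM was computed on TMM-scaled totals (edgeR 4.0.16, R 4.3.3), and intervals with scipy 1.17.1 in Python 3.11.15. DESeq2 1.42.0 gave the median-of-ratios alternative, and figures were drawn with matplotlib 3.10.9. With 1 library per group no gene was tested. Genes were called by size (2-fold or more on log2(CPM + 1), the higher library reaching 10 CPM). That scale understates the change of low genes. Folds are ratios of CPM with Clopper-Pearson 95% intervals from the pair of counts, and levels have exact Poisson intervals. For a count of 0 a fixed limit of 3 reads is given, somewhat lower than the upper end of such an interval. Intervals cover counting error only, since PCR copies are not independent molecules. The members and the gene lists were chosen with earlier results of these data known. Symbols follow the files, and older ones were matched by Gene ID to RefSeq. Named genes are the 9, up to 3 called members of each list per comparison with the largest log2 fold (or the most abundant), the 3 genes nearest each member, and Csf1r, Emr1, Flt3 and Itgax. Outside this rule, after values were seen, Irf4, Flt3l, Xcl1, Tcf4, Clec1b, Gsg2 and other Cd209 genes are named. Scaling, pseudocount, minimum, threshold, RPKM and the core macrophage median as baseline were varied.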

Additional observations from a re-analysis of the deposited data

Results flagged for a closer look

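In 2 genes the T-ALL libraries lay on opposite sides of the normal ones in the 2 organs, with counting intervals that exclude 1 in each. Cd209a was 2.41 times its normal level in T-ALL bone marrow (1.96 to 2.97) and 0.0297 times in T-ALL spleen (0.0161 to 0.0504). Batf3 was 2.82 times its normal level in T-ALL bone marrow (1.68 to 4.90), from 21 and 56 reads, and 0.404 times in T-ALL spleen (0.324 to 0.502). With 1 library per group the difference between organs was not tested.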

How the results depend on the processing

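Of 12 other settings 7 can move a log2 fold. Under these, 200 of 252 folds of single genes stayed within the counting interval of the reported value, with 14 of 36 moved by a pseudocount of 5, 7 by RPKM and 3 by a pseudocount of 0.1. Another 24 moved and 4 called folds changed sign, each with folds set against the core macrophage median (log2 2.21 for T-ALL against normal bone marrow, -0.74 in spleen and 2.44 between normal organs). These were Cd209a in T-ALL bone marrow (-1.0) and, between normal organs, Clec9a (-0.50), Cd209a (-0.64) and Xcr1 (-0.19). The median of the 9 genes between normal organs, 2.25, became -0.19 there. Against that baseline the counts were 0 higher and 3 lower in T-ALL bone marrow, 5 lower in T-ALL spleen, 1 higher and 2 lower between normal organs, and 1 higher and 2 lower between T-ALL organs. The baseline moves the folds of all genes by the same amount. The share of all genes called against it was not computed, so these counts have no background. In T-ALL bone marrow the count of higher genes was 2 with no minimum, with 1 CPM or with RPKM (minimum 5), and 0 with 50 CPM or 4-fold, and 1 gene was lower at 1.5-fold. In T-ALL spleen the lower genes were 5 at 4-fold and 2 with 50 CPM, where 2 genes were measured. Between normal organs the lower genes were 2 at 1.5-fold or with a pseudocount of 0.1 and 0 at 4-fold, and the higher ones 2 with 50 CPM. Between T-ALL organs 1 gene was higher with total-count or median-of-ratios scaling, a pseudocount of 0.1, 1.5-fold or RPKM, and 2 with no minimum or 1 CPM, while 1 was lower with 50 CPM. Fewer or more genes pass by construction where the minimum or the threshold changes, while the baseline change shifts every gene alike. Between T-ALL organs Batf3 narrowly missed the rule at a log2 fold of 0.99, so its call depends on the scaling. The share of all genes called was computed for the reported setting alone, so the counts under all other settings have no background. Low read counts of these genes limit the bone marrow folds most, where 6 of the 9 genes stay under 10 CPM. No paired analysis was possible because each group has 1 library.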

Other observations

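Other Cd209 genes were looked at after their values were seen. Cd209b and Cd209d had fewer reads in T-ALL than in normal spleen, as Cd209a did, at 2 against 24 and 1 against 13. Cd209c had 19 against 29, and the interval of its fold, 0.634 (0.336 to 1.17), included 1. Cd209b, Cd209c and Cd209d all stayed under 10 CPM in spleen. In bone marrow Cd209b had 5 reads with T-ALL against 1, Cd209c 55 against 25, and Cd209d 11 in both. Cd209f had 10 reads in normal and 71 reads in T-ALL bone marrow and 0 in both spleen libraries. The fixed limit of 3 reads for a count of 0 is 0.336 CPM in normal spleen. Cd209g had 2 and 14 reads in bone marrow and 0 in both spleen libraries. Cd209e had 0 and 6 reads in normal and T-ALL bone marrow and 1 and 0 in normal and T-ALL spleen. These genes are close copies, so unique counts are uncertain.

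Clec4a4, a lectin of splenic cDC2, had 1 read in normal bone marrow, 14 in T-ALL bone marrow, 319 in normal spleen and 35 in T-ALL spleen.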
